A study of Mus musculus with 4 samples.

Results

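Among the regenerating myogenic progenitors (MPs), 587 cells carried RNA of Myog, which encodes the differentiation factor myogenin, together with RNA of genes used in DNA replication and mitosis. They are called Myog+ cycling cells here. They were taken from 16519 deposited barcodes, of which 7877 were kept as cells: at least 5000 UMIs (unique molecular identifiers, 1 for each captured RNA molecule), at least 1000 genes, at most 10% mitochondrial UMIs and no UMI of Cd74. Per 10000 UMIs, a Myog+ cycling cell held at least 2 of Myog, at least 2 of Top2a, Mki67, Cenpf, Rrm2 and Tyms summed (the cycle sum), and under 100 of the late muscle genes Myh3, Myh8, Tnnc2, Mybph, Acta1 and Mylpf summed (the sarcomere sum). The Pax7Cre libraries, replicates 1 and 2, held 146 and 70 such cells. The miR-501KO libraries, replicates 1 and 2, held 242 and 129. Values of the 4 libraries are given in this order throughout. Beyond these filters the cells were chosen by the RNA counts of these 12 genes alone, and neither DNA content nor division was measured.

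Muscle stem cells that are activated by injury divide as myoblasts under Pax7, Myf5 and Myod1. Myogenin is switched on as myoblasts commit to differentiation, and commitment is coupled to a permanent exit from the cell cycle through CDK inhibitors such as p21 (Cdkn1a) and p57 (Cdkn1c) and through the retinoblastoma protein. The withdrawn cells then fuse into fibres with the membrane proteins myomaker (Mymk) and myomixer (Mymx), so a cell with both Myog RNA and cycle RNA lies where these programs meet.

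All cells came from 12-week-old male mice, 6 days after cardiotoxin, a snake venom toxin that destroys muscle fibres, was injected into the tibialis anterior muscles of both hindlimbs. MPs were sorted as α7-integrin+ CD45- CD31- Sca1- cells. The control group, labelled WT (Pax7Cre), carried Cre under the Pax7 promoter, and the other group, miR-501KO (Pax7CremiR-501fl/Y), carried the same Cre and a floxed miR-501 gene on its X chromosome. Cre expression from the Pax7 promoter follows the myogenic lineage and cannot be timed. Each group had 2 libraries from separate runs, each pooled from 3 mice, so the library was the replicate. The comparison of genotypes asked whether loss of miR-501 altered the Myog+ cycling cells. No feature for miR-501 was listed in the count files, so its deletion could not be checked in these counts.

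The deleted locus encodes both mature strands below. They are shown with the seed (bases 2 to 8) in capitals, and the seeds of the strands differ. In GRCm38.p6 the 3p strand lies at chrX:7241270-7241291 and the 5p strand at chrX:7241307-7241328, both on the minus strand and both taken from RefSeq.
mmu-miR-501-3p: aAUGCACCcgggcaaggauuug
mmu-miR-501-5p: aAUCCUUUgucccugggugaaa

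Promoters of 4 genes are shown: Myog, which the cells were chosen by, and 1 gene from each of 3 lists described below, the acetylcholine receptor gene Chrna1, the replication gene Mcm5 and the mitotic gene Cdc20. Each covers 250 bases before to 50 bases after the start of the gene in RefSeq, GRCm38.p6: chr1:134289754-134290053 (plus strand) for Myog, chr2:73580289-73580588 (minus) for Chrna1, chr8:75109259-75109558 (plus) for Mcm5 and chr4:118437294-118437593 (minus) for Cdc20. Capitals mark E-boxes (CAGCTG or CAGTTG) in Myog and Chrna1, E2F motifs (TTTGGCGC, TTTCGCGC or TTTCCCGC) in Mcm5, and the CHR element (TTTGAA) and CCAAT boxes in Cdc20. Both strands were searched.
Myog: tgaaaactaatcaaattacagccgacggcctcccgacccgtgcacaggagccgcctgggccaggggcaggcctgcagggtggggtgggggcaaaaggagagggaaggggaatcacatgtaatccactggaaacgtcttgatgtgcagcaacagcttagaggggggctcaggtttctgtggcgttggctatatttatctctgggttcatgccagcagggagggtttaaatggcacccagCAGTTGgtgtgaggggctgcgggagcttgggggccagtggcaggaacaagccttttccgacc
Chrna1: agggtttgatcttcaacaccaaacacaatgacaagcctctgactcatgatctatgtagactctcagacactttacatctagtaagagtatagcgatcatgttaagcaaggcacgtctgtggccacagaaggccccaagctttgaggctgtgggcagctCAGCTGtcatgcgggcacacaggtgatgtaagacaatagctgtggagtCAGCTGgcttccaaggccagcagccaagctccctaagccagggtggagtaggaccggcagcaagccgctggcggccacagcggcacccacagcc
Mcm5: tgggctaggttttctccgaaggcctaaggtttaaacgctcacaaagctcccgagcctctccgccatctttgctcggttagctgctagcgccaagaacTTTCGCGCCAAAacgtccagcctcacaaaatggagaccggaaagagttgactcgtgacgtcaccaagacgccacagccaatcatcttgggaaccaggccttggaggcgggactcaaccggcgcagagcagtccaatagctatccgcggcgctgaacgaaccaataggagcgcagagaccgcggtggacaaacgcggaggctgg
Cdc20: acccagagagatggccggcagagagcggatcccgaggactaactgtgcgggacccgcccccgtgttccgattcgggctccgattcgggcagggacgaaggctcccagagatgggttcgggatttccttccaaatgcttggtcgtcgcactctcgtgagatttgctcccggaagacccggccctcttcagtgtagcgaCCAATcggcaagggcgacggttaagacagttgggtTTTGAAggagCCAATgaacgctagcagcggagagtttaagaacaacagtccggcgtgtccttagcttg

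The E-box lay 12 bases before the start of Myog, and the 2 E-boxes of Chrna1 lay 92 and 44 bases before its start. In Mcm5 the E2F matches overlapped at 153 and 149 bases before the start. In Cdc20 the CHR element lay 18 bases before the start, with CCAAT boxes at 53 and 8 bases before it. An E-box stood in 5 of the 6 promoters found for acetylcholine receptor genes and in 27.3% of all 27025 promoters. An E2F motif stood in 9 of 19 promoters of the G1/S licensing genes, in 5 of 22 of the S phase genes, in 1 of 33 of the G2/M genes and in 1.91% of all promoters. The CHR element stood in 22 of 33 promoters of the G2/M genes, in 3 of 19 of the G1/S genes and in 18.1% of all promoters. CCAAT boxes were common in both, in 26 of 33 and 13 of 19 promoters against 37.9% of all. A match is a run of letters and no measured binding site.

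Depth separated the Myog+ cycling cells of the 2 genotypes before any gene was compared. The libraries held between 73665012 and 117527749 UMIs, and the kept cells had a median of 27438 to 35241 UMIs. The Myog+ cycling cells had a median of 46433 and 49768 UMIs in the Pax7Cre libraries, but 8919 and 29870 in the miR-501KO libraries. Of the 587 cells, 256 (43.6%) held under 15000 UMIs, and 246 of these came from the miR-501KO libraries. They made up 4.79%, 4.29%, 77.7% and 45.0% of the Myog+ cycling cells of the 4 libraries.

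**Figure D1:**
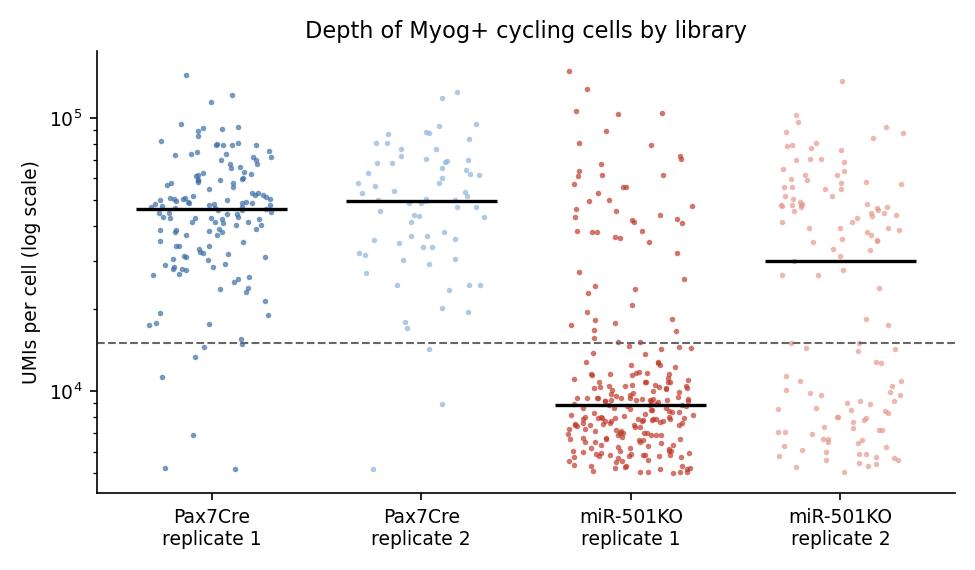
UMIs of each Myog+ cycling cell on a log axis, by library. Bars mark medians (46433, 49768, 8919 and 29870 UMIs) and the dashed line marks 15000 UMIs. In miR-501KO replicate 1 most cells lie under the line.

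By clustering, 156 of the 587 cells fell into a cluster with a median of 8043 UMIs that drew 90% of its barcodes from the miR-501KO libraries, and 88 fell into 3 clusters made up to at least 96.8% of miR-501KO barcodes. The 88 all came from miR-501KO replicate 1. In the miR-501KO cells under 15000 UMIs, Myod1 stood at 97.3 and 103 CPM (counts of a gene's UMIs per 1000000 UMIs of the summed cells) and the cycle gene Top2a at 260 and 362 CPM. In the deeper cells of the same libraries Myod1 stood at 359 and 365 CPM and Top2a at 745 and 698 CPM. The shallow cells thus differed from the deep ones in composition as well as in depth. Results below are for all 587 cells. For part of them, values are also given for the 331 deep cells with at least 15000 UMIs (139, 67, 54 and 71). This limit was chosen after the depths had been seen.

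The muscle identity of the cells was checked against markers. Des, an intermediate filament of muscle, was present at 894, 828, 892 and 855 CPM and Cdh15, the cadherin of muscle progenitors, at 215, 202, 186 and 224 CPM. In the 331 deep cells the sums of marker lists for other cell types were low: 16.3 to 21.7 CPM over 12 macrophage genes, 9.53 to 17.2 over 10 fibroblast genes, 29.2 to 58.7 over 9 mural genes, 5.27 to 10.6 over 8 Schwann cell genes, 4.58 to 6.06 over 7 endothelial genes and 0.762 to 1.67 over 6 lymphocyte genes. The mural list included Notch3, which is also described below among the Notch genes of the Myog+ cycling cells. Among the shallow cells the mural sum was 336 CPM in miR-501KO replicate 1 and the fibroblast sum was 579 CPM in miR-501KO replicate 2. The part of other cells' RNA in the shallow cells was not tested. Of the 587 barcodes, 1 (0.170%) occurred in another library.

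The values that chose the cells are given as a description. Median Myog per 10000 UMIs was 9.14, 11.1, 9.0 and 7.56, with a maximum of 76.7, against 32.3 in the 1076 Myog+ non-cycling cells, which passed the same Myog and sarcomere limits but had a cycle sum under 2. The median cycle sum was 15.3, 19.9, 7.93 and 11.0. The lowest Myog value inside the limit was 2.008 and the highest outside was 1.998. For the sarcomere sum the nearest values were 98.2 inside and 136 outside, and 14 cells with both Myog and cycle RNA were left out by it. In 24 of the 587 cells Myog rested on 1 or 2 UMIs.

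Myog+ cycling cells made up a larger share of the miR-501KO libraries, but not among cells with at least 15000 UMIs. Among all kept cells they were 5.28% (95% Wilson interval 4.50 to 6.17) and 4.61% (3.67 to 5.79) in the Pax7Cre libraries, and 14.2% (12.6 to 15.9) and 6.84% (5.78 to 8.06) in the miR-501KO libraries. miR-501KO replicate 1 stood far above the rest. The group means were 4.94% ± 0.47 and 10.5% ± 5.2 (SD, n = 2 libraries per group). An exact two-sided permutation test gave p = 0.33, which is as small as 2 against 2 libraries allow. The miR-501KO library was higher by 8.92 percentage points in run 1 and by 2.22 in run 2, and without miR-501KO replicate 1 the difference of 5.57 points became 1.89. Among cells with at least 15000 UMIs the shares were 5.35%, 4.74%, 4.23% and 4.47%, so the direction turned, with miR-501KO lower by 1.12 points in run 1 and by 0.27 in run 2 (means 5.04% ± 0.43 and 4.35% ± 0.17; difference -0.69 points, exact permutation p = 0.33). With every kept cell thinned to 5000 UMIs instead, the difference kept its direction (4.17 points, exact permutation p = 0.667). The shares were then 12.7%, 9.16%, 18.8% and 11.4%, so the groups overlapped. Thinning also changed which cells were selected, with 352 in place of 146 in Pax7Cre replicate 1.

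A second share took the Myog+ cells alone and counted those in cycle. It was 25.4% (22.0 to 29.1) and 23.7% (19.2 to 28.9) in the Pax7Cre libraries and 54.0% (49.4 to 58.6) and 37.4% (32.5 to 42.6) in the miR-501KO libraries. The groups did not overlap, with means of 24.6% ± 1.18 and 45.7% ± 11.8 and a difference of 21.1 points (exact two-sided permutation p = 0.33). Within runs the difference was 28.6 and 13.7 points. In cells with at least 15000 UMIs the same shares were 25.5%, 23.4%, 25.5% and 26.3%. The libraries then lay within 2.87 points of each other, and the difference of 1.44 points was 0.01 in run 1 and 2.87 in run 2. With every kept cell thinned to 5000 UMIs it was 15.4 points (18.1 and 12.6 within runs). The Wilson intervals cover counting error only.

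**Figure D2:**
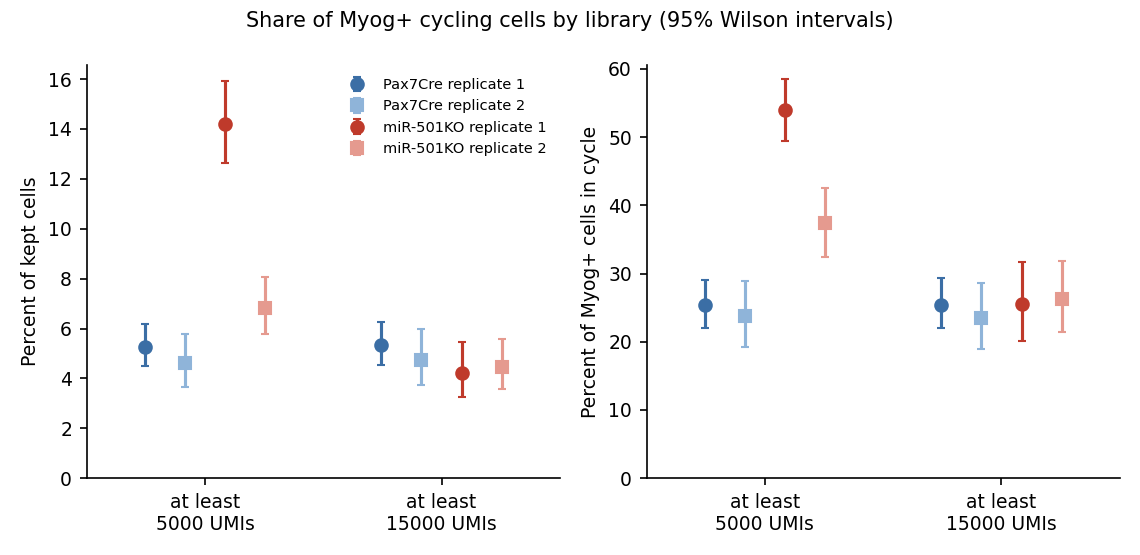
Share of Myog+ cycling cells among kept cells (left) and among Myog+ cells (right), in percent, by library, for cells with at least 5000 and at least 15000 UMIs. Points are libraries and error bars 95% Wilson intervals for counting error. The high values of the miR-501KO libraries (14.2% and 54.0% in replicate 1) are seen at 5000 UMIs and not at 15000 UMIs.

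Few genes differed between the genotypes within the Myog+ cycling cells beyond the spread of the libraries. Of 10706 genes tested on library sums with edgeR's quasi-likelihood test, 2 (0.0187%) passed a Benjamini-Hochberg adjusted p of 0.05, and both were higher in miR-501KO. At an unadjusted p under 0.05 there were 668. Cavin4, a caveolar protein of muscle, stood at 24.2, 22.1, 51.7 and 52.6 CPM. Both miR-501KO libraries were above both Pax7Cre libraries (log2 fold change 1.16 ± 0.15 SE, edgeR adjusted p = 0.0162), and in the deep cells the values were 23.8, 22.3, 57.2 and 55.0 CPM (1.25, adjusted p = 0.0052). Mylpf, a fast myosin light chain, stood at 171, 131, 494 and 319 CPM (1.42 ± 0.19, edgeR adjusted p = 0.0162), but it was among the genes of the sarcomere sum. Of these 2 calls, neither held without Pax7Cre replicate 1 or 2, although the fold changes were of like size (Cavin4 1.27 and 1.08, Mylpf 1.67 and 1.22, adjusted p from 0.291 to 0.97). Nor did they hold with a sarcomere limit of 30 in place of 100 (Mylpf 0.47, adjusted p = 0.733; Cavin4 0.74, adjusted p = 0.258), without the deepest cells (2.14, adjusted p = 0.102; 1.41, adjusted p = 0.369) or without the filter on low counts (1.41, adjusted p = 0.629; 1.15, adjusted p = 0.486). Cavin4 was also not called with a cycle limit of 4 (0.79, adjusted p = 0.275), and Mylpf not with DESeq2 (1.43, adjusted p = 0.115). Without miR-501KO replicate 2, 102 genes were called, and without miR-501KO replicate 1, 9.

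With run as a block, 74 genes were called, 61 higher and 13 lower in miR-501KO, and 13 in the deep cells. Acta1, skeletal muscle actin and also part of the sarcomere sum, was among them. It stood at 179, 87.4, 601 and 238 CPM (1.61, edgeR adjusted p = 9.45e-07 with the block, 1.62 and 0.151 without it). Myod1, Cdkn1c and Cdkn1a were not called without the block. Their miR-501KO to Pax7Cre log2 fold changes were -0.05 (edgeR adjusted p = 0.998), -0.33 (0.737) and 0.33 (0.713). Myog and Top2a had -0.21 and -0.47. The cells were chosen by these 2 genes, so their values are a description. Myf5, an early myogenic factor, stood at 53.2, 44.8, 98.7 and 66.1 CPM in all cells and at 53.1, 44.9, 57.9 and 41.6 CPM in the deep cells (0.74, edgeR adjusted p = 0.229; -0.03, adjusted p = 0.999). It was called with the run block (0.75, adjusted p = 0.00836). Ccnd1, Myf5, Acta1 and Mymk were called in the absence of miR-501KO replicate 2. None of the 24 G1/S, 30 S phase or 40 G2/M genes was called, and the medians of the G2/M and sarcomere lists (-0.29 and 0.67 on the log2 scale, against 0.00 over all genes) moved to -0.16 and 0.16 in the deep cells. Whether the step from Myog+ non-cycling to Myog+ cycling cells differed between genotypes was tested as an interaction, which called 13 of 11908 genes (0.109%) and 3 in the deep cells.

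The next comparison set the Myog+ cycling cells beside 1510 cycling MPs with little or no Myog (576, 283, 257 and 394). These Myog-low cycling cells passed the same cycle and sarcomere limits, had Myog under 2 and had at least 2 of Pax7, Myf5 and Myod1 summed. Both sets lay in every library, so library was a block. Of 11848 genes, 2195 (18.5%) were higher and 2291 (19.3%) lower in the Myog+ cycling cells. These shares are the background for the list counts of this comparison. The sets were separated by Myog, so these calls describe what went with Myog in cycling cells and are no independent support for the split.

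Within the cycle, the Myog+ cells had less RNA of many replication genes, while mitotic genes were more often higher than lower. Of 24 G1/S licensing genes, 15 were lower and 1 higher, with a median log2 fold change of -0.33 against -0.01 over all genes. Mcm5, a subunit of the replicative helicase, stood at 49.1, 76.0, 60.8 and 50.9 CPM in Myog+ cycling cells and at 71.2, 82.4, 74.2 and 83.1 CPM in Myog-low cycling cells. It was lower in 4 of 4 libraries (-0.34 ± 0.08, edgeR adjusted p = 0.00505), though not past the threshold without miR-501KO replicate 2 (adjusted p = 0.0586). Pcna, the sliding clamp of DNA polymerase, was lower in 4 of 4 libraries as well, at 171, 245, 176 and 185 against 219, 285, 236 and 276 CPM (-0.32 ± 0.06, adjusted p = 0.00052). The 1 exception was E2f2, an activating E2F factor.

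Dscc1, which helps to load that clamp and also stood in the G1/S list, fell by 0.70 on the log2 scale. Among 30 S phase genes 19 were lower and 1 higher (median -0.26). The ligase gene Lig1 fell by 0.49, the chromatin remodeller Hells by 0.53 and the replication checkpoint gene Clspn by 0.46. The gene that was higher, named after its values had been seen, was the histone chaperone Asf1b (0.25), whose call was lost without Pax7Cre replicate 1, Pax7Cre replicate 2 or miR-501KO replicate 2. In the deep cells 15 of the 24 G1/S genes and 18 of the 30 S phase genes were lower, and 2 of each were higher.

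Of 40 G2/M genes, 8 were higher and 2 lower (median 0.08), a share of higher genes near the 18.5% of all genes. In the deep cells 19 were higher and 2 lower (median 0.14), where 20.4% of all genes were higher and 21.4% lower. The 2 lower genes, named after their values had been seen, were the spindle checkpoint kinase Ttk (-0.34) and Incenp (-0.26), a subunit of the chromosomal passenger complex. Incenp lost its call without either miR-501KO library (adjusted p = 0.0799 and 0.0732). Ccnb1, the mitotic cyclin B1, stood at 181, 203, 140.3 and 168 CPM against 136, 153, 139 and 132 CPM in Myog-low cycling cells. It was higher in 4 of 4 libraries, with miR-501KO replicate 1 nearly level (0.38 ± 0.06, edgeR adjusted p = 0.000213). The phosphatase Cdc25b (0.40, adjusted p = 0.0013), the centromeric histone Cenpa (0.38) and the mitotic kinase Aurka (0.38) were higher too, and Aurka lost its call without Pax7Cre replicate 1 or miR-501KO replicate 2. Ube2c, which works with the anaphase-promoting complex, was higher by 0.25 on the log2 scale, but not past the threshold without miR-501KO replicate 2. Cdk1 changed by 0.16 (adjusted p = 0.0331), and that call was lost without Pax7Cre replicate 1, Pax7Cre replicate 2 or miR-501KO replicate 2. Ccna2 had 0.08 (adjusted p = 0.478), with 0.22 without miR-501KO replicate 1 (adjusted p = 0.00195). Cdc20 had 0.15 (adjusted p = 0.0537), with 0.21 without that library (adjusted p = 0.00339). Both passed the threshold in the deep cells (0.16 and 0.20). With cells above the 75th percentile of UMIs left out, Cdc25b, Aurka, Ube2c, Cdk1, Ttk and Incenp lost their calls.

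The same tilt was seen cell by cell. In the deep cells thinned to 15000 UMIs, the G2/M list held more UMIs than the S phase list in 67.6%, 59.7%, 64.8% and 64.8% of the Myog+ cycling cells. Among Myog-low cycling cells the shares were 51.4%, 47.1%, 50% and 43.1%. The first set lay above the second in every library. No phase was assigned from these counts.

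**Figure D3:**
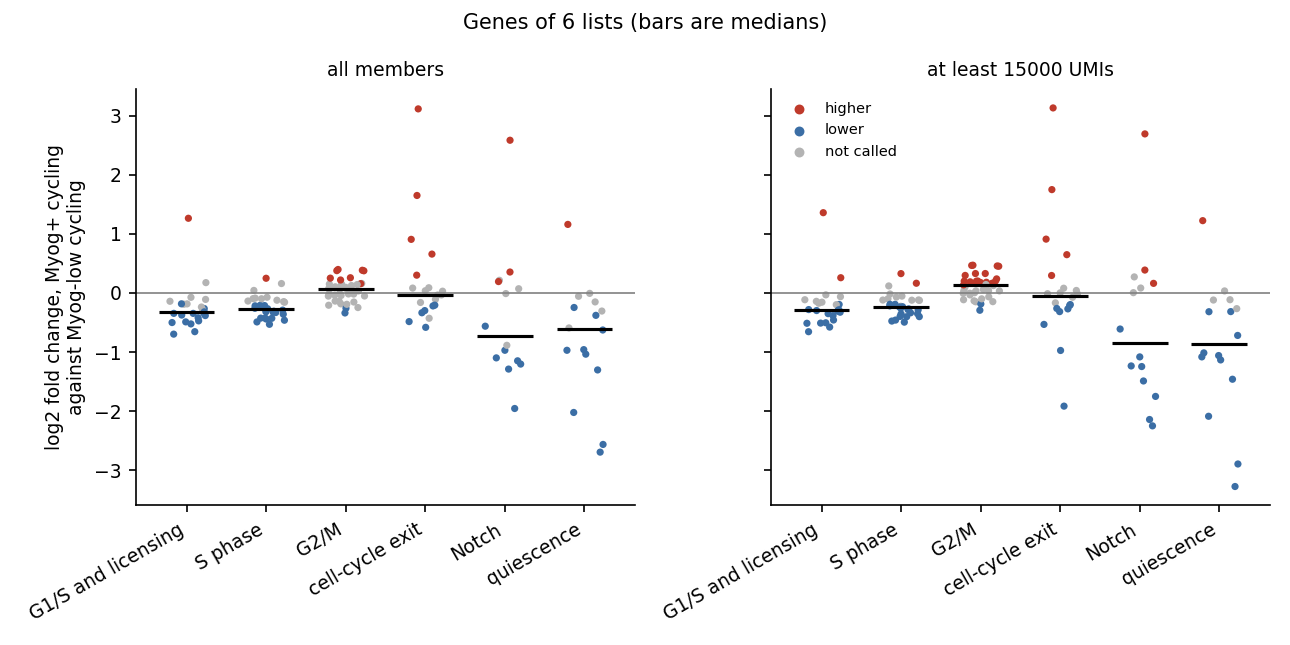
Log2 fold change of the genes of 6 lists (G1/S, S phase, G2/M, cell cycle exit, Notch, quiescence), Myog+ cycling against Myog-low cycling cells, for all cells and for cells with at least 15000 UMIs. Each point is a gene, red for called higher, blue for called lower and grey for not called, and black bars are medians. The G1/S and S phase genes lie mostly under 0 (medians -0.33 and -0.26) and the G2/M genes around or above it (0.08, and 0.14 in the deep cells).

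The early myogenic factors fell and the later ones rose with Myog. Pax7, the stem cell factor, stood at 24.1, 24.1, 35.9 and 24.1 CPM against 103, 125, 113 and 115 CPM in Myog-low cycling cells (-2.00 ± 0.10). Myf5 stood at 53.2, 44.8, 98.7 and 66.1 against 264, 247, 271 and 246 CPM (-1.93 ± 0.12). The sets did not overlap for either gene. Pax7, Myf5 and Myod1 summed were also used to choose the Myog-low cycling cells, so these values are given with no test. Myod1, the determination factor, went the other way, at 271, 356, 262 and 335 against 75.2, 96.2, 91.6 and 85.7 CPM (1.88 ± 0.06).

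Of 23 myogenic regulators tested, 13 were higher and 6 lower, where 18.5% and 19.3% of all genes were. These counts include Myod1 among the higher and Pax7 and Myf5 among the lower, which were tied to the choice of the Myog-low cycling cells. The RNA-binding protein Rbm24, which controls muscle splicing, was higher by 2.95 on the log2 scale (288, 361, 267 and 273 against 40.5, 37.7, 43.7 and 39.1 CPM). Mef2c, a partner of the myogenic factors, was higher by 1.70 and the repressor Hes6 by 1.41. The inhibitors of myogenic factors Msc and Id3 were lower by 1.92 and 0.88. Nfix had -0.35. Outside the lists, the zinc finger factor Casz1 stood at 24.7, 27.4, 35.9 and 28.0 CPM against 0.57 to 1.15 CPM (5.03 ± 0.18), and Fndc5, which encodes the precursor of irisin, Sox6 and Mycl were higher by 3.40, 3.23 and 2.95. The heparan sulfate proteoglycan Gpc3, the chemokine Cxcl10 and Itih5 fell by 2.10, 2.27 and 2.51.

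Markers of the quiescent satellite cell were mostly low in Myog+ cycling cells. Of 16 tested, 10 were lower and 1 higher (median -0.61), and 11 were lower in the deep cells (median -0.87). The higher one was Megf10, a receptor of satellite cells (66.2, 84.6, 60.6 and 66.6 against 28.9, 37.7, 32.8 and 31.8 CPM, 1.16 ± 0.07). Chodl, a lectin-like membrane protein, stood at 5.39, 3.59, 9.10 and 13.5 CPM against 37.3, 71.7, 56.2 and 56.4 CPM (-2.69 ± 0.19, edgeR adjusted p = 2.74e-08). The collagens Col15a1 and Col5a1 and the teneurin Tenm4 fell by 2.56, 1.30 and 2.02. Only the Myog-low cycling cells were also chosen by Pax7, Myf5 and Myod1. The part of that choice in these markers was not tested.

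Notch signalling keeps stem cells undifferentiated, with Delta and Jagged ligands on one cell and Notch receptors on its neighbour. Of 14 Notch genes tested, 3 were higher and 7 lower (median -0.72; 3 and 8 in the deep cells, median -0.85). The ligand Dll1 stood at 47.4, 45.9, 42.4 and 42.5 CPM against 7.24, 9.34, 8.66 and 6.59 CPM in Myog-low cycling cells (2.58 ± 0.10, edgeR adjusted p = 6.04e-11). In the Myog+ non-cycling cells it stood at 45.1, 46.8, 54.4 and 45.5 CPM (-0.09 ± 0.08, adjusted p = 0.366). The Myog+ sets overlapped for Dll1, and both lay above all values of the Myog-low cycling cells.

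The receptor Notch3 showed the reverse, at 39.1, 29.6, 46.0 and 23.6 CPM against 139, 144, 162 and 120.5 CPM (-1.95 ± 0.09). In the non-cycling cells Notch3 was lower still, at 24.5, 18.1, 30.8 and 19.1 CPM (0.58 ± 0.10 for cycling against non-cycling, adjusted p = 8.69e-05). The Notch targets Heyl and Nrarp were lower than in Myog-low cycling cells by 0.97 and 1.29 on the log2 scale, and higher than in the non-cycling cells by 0.59 and 1.45. Rbpj, the DNA-binding partner of Notch, went the other way (0.35 and -0.30). Named after their values had been seen, Notch2 was the third gene above the Myog-low cycling cells (0.19, with 0.01 in the deep cells and no call without any 1 of the libraries), and the Notch inhibitor Numb was, with Rbpj, below the non-cycling cells (-0.49). Notch1 was higher than in the non-cycling cells by 0.25 (not past the threshold without Pax7Cre replicate 1 or miR-501KO replicate 2), with 0.07 against the Myog-low cycling cells (0.16 in the deep cells, adjusted p = 0.0285).

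The third comparison set Myog+ cells in cycle beside Myog+ cells out of it. The sets were not matched for Myog. Median Myog, on the scale of the Myog limit, was 8.97 in the cycling and 32.3 in the non-cycling cells. Among the deep Myog+ cycling cells, Cdkn1c, Mymk, Mymx, Rb1 and Actc1 were highest where Myog was highest. The part of the Myog level in the differences between the sets was not tested. Of 11376 genes, 2711 (23.8%) were higher and 2828 (24.9%) lower in the cycling cells. These shares are the background for the list counts of this comparison. Every one of the 24 G1/S, 30 S phase and 40 G2/M genes was higher (medians 2.56, 2.93 and 5.43), which followed from the choice of the cells and is given with no test. Ccnb1 stood at 0.899 to 2.29 CPM in the non-cycling cells, and Mcm5 at 5.86 to 8.13 CPM.

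The 20 genes listed for cell cycle exit had no common direction. Beside inhibitors, the list held the D cyclins (Ccnd1, Ccnd2, Ccnd3) and their kinases (Cdk4, Cdk6), which promote the cycle. Its counts therefore do not describe inhibitors of the cycle alone. Against Myog-low cycling cells 5 were higher and 6 lower (median -0.03), where 18.5% and 19.3% of all genes were. Against non-cycling cells 8 were higher and 7 lower (median 0.08), where 23.8% and 24.9% of all genes were. In the deep cells 8 were lower than in Myog-low cycling cells, and the median against non-cycling cells was -0.07. Of those named, Cdkn1c, Cdkn1a, Rb1 and Btg1 lay between the neighbouring sets. Cdkn1c, the CDK inhibitor p57, stood at 3619.8, 3072, 2519 and 2797 CPM in Myog+ cycling cells. It stood at 508, 396, 257 and 328 CPM in Myog-low cycling cells and at 9102, 9050.4, 6121 and 7670.3 CPM in Myog+ non-cycling cells. The 3 sets did not overlap, and the Myog+ cycling cells were 8.66-fold above the first (3.11 ± 0.08, edgeR adjusted p = 2.45e-13) and at 0.378 times the level of the second (-1.40 ± 0.07, adjusted p = 1.48e-11).

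Cdkn1a, the inhibitor p21, showed a smaller step, at 236, 287, 301 and 351 CPM between 116 to 203 and 374 to 471 CPM (0.91 ± 0.06 and -0.47 ± 0.07). Rb1, the retinoblastoma gene, stood at 59.6, 75.7, 72.1 and 74.5 CPM, between 19.7 to 29.0 and 107 to 155 CPM (1.65 ± 0.08 and -0.86 ± 0.08). The antiproliferative gene Btg1 followed the same order (0.66 and -0.71). Cdkn1b, the inhibitor p27, had the opposite order, with -0.22 and 0.23 (edgeR adjusted p = 0.0112 and 0.0158), and these calls were lost without Pax7Cre replicate 1 and without miR-501KO replicate 2, respectively. Cyclin D3 (Ccnd3) did not pass the threshold in either (0.03 and -0.10). Cyclin D1 (Ccnd1) stood at 79.7, 81.3, 160.5 and 88.1 CPM, was higher than in the non-cycling cells (0.40 ± 0.10, adjusted p = 0.00409) and had 0.04 against the Myog-low cycling cells, which became -0.16 without miR-501KO replicate 1 (adjusted p = 0.0368). Cdkn2c, Cdkn2d and Rbl1 were higher than in the non-cycling cells by 2.86, 2.36 and 3.61.

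**Figure D4:**
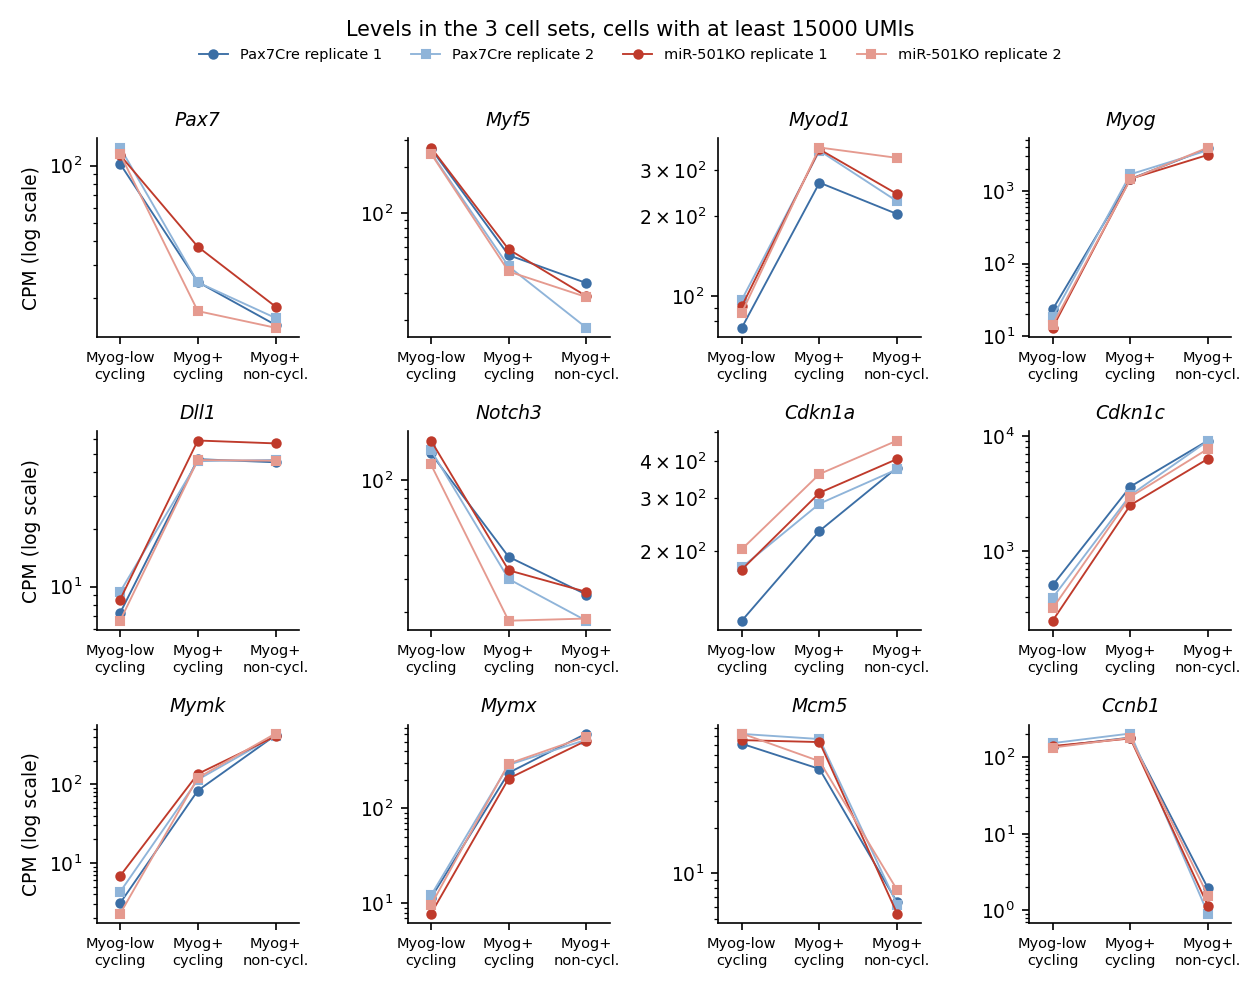
CPM of 12 genes on a log axis in Myog-low cycling, Myog+ cycling and Myog+ non-cycling cells with at least 15000 UMIs, 1 line for each library. Pax7 and Myf5 fall and Cdkn1a, Cdkn1c, Mymk and Mymx rise from left to right, Notch3 falls from the first set to the second and is level with the third in miR-501KO replicate 2, Myod1 peaks in the middle set in all 4 libraries, and Ccnb1 drops to between 0.906 and 1.94 CPM in the last set.

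Early myogenic factors were also higher in the cycling than in the non-cycling Myog+ cells. Myf5 (53.2, 44.8, 98.7 and 66.1 against 35.2, 17.8, 36.2 and 32.1 CPM) was higher by 1.07 ± 0.12 on the log2 scale, or 2.10-fold (edgeR adjusted p = 1.28e-06). Pax7 was higher by 0.73 ± 0.11 and Id3 by 0.95 ± 0.08. Of 22 regulators 8 were higher and 10 lower, where 23.8% and 24.9% of all genes were. The lower ones included Mef2c (-1.33), Mef2d (-1.16), Hes6 (-0.41) and Rbm24 (-0.31), and Nfix had -0.02. Without the deepest cells Mef2c had -0.45 and was not past the threshold (edgeR adjusted p = 0.307). Of 16 quiescence markers 11 were higher (9 of 15 in the deep cells), among them the caveolin Cav1 (1.16). The 2 lower ones were Megf10 (-0.89) and, named after its values had been seen, the chemokine receptor Cxcr4 (-0.45).

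The fusion genes myomaker and myomixer, which the rule did not use, were lower in the cycling than in the non-cycling Myog+ cells, but their list as a whole was not. Of 14 fusion genes 3 were higher and 5 lower than in the non-cycling cells, against 23.8% and 24.9% of all genes, and the median was -0.02 against -0.04 over all genes. In the deep cells 4 were higher and 5 lower, with a median of 0.02 against -0.02 over all genes. Mymk stood at 83.0, 114, 169 and 119 CPM against 418, 414, 392 and 438 CPM (-1.82 ± 0.13, edgeR adjusted p = 2.84e-09) and at 2.54 to 7.37 CPM in Myog-low cycling cells. Mymx stood at 237, 286, 224 and 279 against 612, 527, 492 and 565 CPM (-1.10 ± 0.07, adjusted p = 1.94e-09) and at 7.92 to 12.1 CPM in Myog-low cycling cells. Both genes were thus many times above the level of other cycling MPs and under that of non-cycling cells in all libraries. The adhesion gene Jam3 fell by 1.08 against the non-cycling cells, while its relative Jam2 was higher by 0.77.

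Genes of the acetylcholine receptor, with which a fibre receives its nerve, lay nearer to the non-cycling level. Of 7 tested, 6 were lower than in the non-cycling cells (median -0.48 against -0.04 over all genes). Chrna1, whose promoter is shown above, stood at 557, 535, 503 and 596 CPM, against 738, 741, 701 and 803 CPM in the non-cycling cells (-0.44 ± 0.06, edgeR adjusted p = 4.6e-06) and 237, 214, 201 and 235 CPM in Myog-low cycling cells. The subunit genes Chrng and Chrnd had -0.96 and -0.20 (the second with an adjusted p of 0.0695), the receptor kinase gene Musk fell by 0.72 and its adaptor gene Dok7 by 0.61. Summed over the list, Myog+ cycling cells held 764 to 888 CPM, non-cycling cells 1090 to 1197 CPM and Myog-low cycling cells 369 to 390 CPM.

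The sarcomere genes outside the rule showed a wider gap. Of 28 tested, 22 were lower than in non-cycling cells and none higher (median -0.94; 23 of 28 in the deep cells, median -1.23). Both sets had passed the same limit on the sarcomere sum. Neither the part of that limit in the gap nor that of the Myog level was tested. Actc1, the fetal actin of striated muscle, stood at 539, 504, 974 and 471 CPM against 2240.3, 2171, 1668 and 2371 CPM (-1.82 ± 0.18, edgeR adjusted p = 2.18e-07) and 16.1 to 21.8 CPM in Myog-low cycling cells. miR-501KO replicate 1 was the highest of the cycling values, and among the deep cells it stood at 714 CPM. Tnnt2, a troponin T, fell by 1.34, Tnni1, a troponin I, by 1.82, the myosin chaperone Unc45b by 1.86 and titin (Ttn) by 1.01. Against the Myog-low cycling cells Klhl41, a regulator of sarcomere assembly, stood at 26.7, 40.9, 69.9 and 40.2 against 1.26 to 1.66 CPM. Outside the lists, the kinase gene Mylk4 (7.80, 15.2, 12.7 and 4.91 against 85.3, 83.4, 95.6 and 59.3 CPM; -3.06 ± 0.14), the phosphatase Ptprf (-3.01), Frmd4b (-2.87) and Spon1 (-2.42) were lower than in the non-cycling cells.

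Some genes were higher in Myog+ cycling cells than in both neighbouring sets. Among them were the 8 G2/M genes and the S phase gene Asf1b called above the Myog-low cycling cells. All G2/M and S phase genes were higher than in the non-cycling cells by the choice of the cells. Other named genes follow, and the genes called higher in both comparisons were not counted. E2f2, an E2F factor that drives entry into S phase, stood at 50.2, 68.6, 45.0 and 61.9 CPM. It stood at 22.1, 26.3, 24.5 and 25.5 CPM in Myog-low cycling cells (1.26 ± 0.08) and at 22.2, 35.2, 37.2 and 36.3 CPM in non-cycling cells (0.82 ± 0.10, edgeR adjusted p = 6.03e-06). All 4 libraries were above both other sets. Myod1 was the other such regulator, with 205, 227, 238 and 331 CPM in the non-cycling cells (0.30 ± 0.08, adjusted p = 0.00504; 0.44 in the deep cells), close to its own level in miR-501KO replicate 2.

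Eno3, the muscle enolase, stood at 232, 194, 212 and 256 CPM, against 137, 112, 121 and 126 in Myog-low cycling (0.92 ± 0.06) and 153, 104, 169.9 and 213 in non-cycling cells (0.52 ± 0.08). The adhesion gene Jam2 stood at 18.4, 29.3, 17.7 and 18.5 CPM, against 14.3 to 17.3 CPM in Myog-low cycling and 9.65 to 13.4 CPM in non-cycling cells, with Pax7Cre replicate 2 apart from the rest. Its log2 fold changes were 0.46 and 0.77, and the first was not past the threshold without Pax7Cre replicate 2 (0.31, edgeR adjusted p = 0.0633) or without the deepest cells (0.66, adjusted p = 0.0562). The next 3 were chosen after their values had been seen. Cdk2, the S phase kinase, stood at 44.0, 52.5, 43.6 and 50.5 CPM, against 32.4 to 39.9 CPM in Myog-low cycling and 30.1 to 38.2 CPM in non-cycling cells (0.50 ± 0.08 and 0.51 ± 0.09). Ccng2, an unconventional cyclin, stood at 68.9, 96.5, 57.2 and 54.9 against 41.3 to 54.6 and 41.3 to 54.9 CPM (0.63 and 0.58). Tafa5, a secreted protein, stood at 25.2, 27.6, 29.2 and 35 against 8.84 to 11.2 and 12.0 to 23.7 CPM (1.57 and 0.90). Both comparisons share the Myog+ cycling cells and are not independent.

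A droplet that holds a pair of cells can mix RNA of both neighbouring sets. The median Scrublet doublet score of the deep cells was 0.05 in Myog+ cycling, 0.03 in non-cycling and 0.05 in Myog-low cycling cells, and the median depth 47652, 35414 and 40561 UMIs. At 15000 UMIs they held a median of 3779, 3653 and 3884 genes. With cells above the 75th percentile of UMIs in their library left out, calls against the non-cycling cells fell from 5539 to 2661 and against the Myog-low cycling cells from 4486 to 1751. Those of Myod1 against non-cycling cells (0.36, edgeR adjusted p = 0.112) and of Cdk2 in both comparisons (0.44, adjusted p = 0.0909; 0.49, adjusted p = 0.0746) were among the calls lost, with Cdkn1a against non-cycling cells (-0.21, adjusted p = 0.379). Mef2c, Ccnd1, Cdkn1b, Notch1, Rbpj, Numb and Cxcr4 lost theirs against non-cycling cells too. Against Myog-low cycling cells the mitotic genes Cdc25b (0.43, adjusted p = 0.0811), Aurka (0.35, adjusted p = 0.121) and Ube2c (0.31, adjusted p = 0.114) lost theirs. So did Cdk1, Asf1b, Ttk, Incenp, Phlda3, Nrarp, Rbpj, Cdkn1b, Nfix and Jam2. The part of doublets in these levels was not tested.

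Myog+ cycling cells varied widely among themselves, and their other genes went with their Myog level. The deep cells were split by Myog per 10000 UMIs into 76 cells from 2 to 5, 135 from 5 to 15 and 120 from 15 upwards, as a description with no test. Cdkn1c stood at 809, 888, 1567 and 798 CPM in the lowest group, at 2479, 1432, 1167 and 1995 in the middle group and at 7530.0, 5514, 4529 and 5391 in the highest. miR-501KO replicate 1, with 7 cells in the lowest group, was the library that did not climb from the first group to the second.

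Mymk stood at 4.77 to 28.6 CPM in the lowest group, 29.9 to 67.2 in the middle and 205 to 273 in the highest. Rb1 stood at 26.0 to 51.1, 48.5 to 80.0 and 89.2 to 129 CPM, and Myod1 at 205 to 366, 262 to 341 and 325 to 469 CPM. Pax7 stood at 32.1 to 71.6, 13.1 to 45.7 and 8.36 to 15.3 CPM. The summed G1/S genes stood at 1391 to 2186, 1133 to 1662 and 737 to 1095 CPM, and the S phase genes at 2313 to 3204, 2049 to 2645 and 1520 to 1938 CPM, so both were lowest where Myog was highest. The G2/M sum stood at 5388 to 6335, 4795 to 7176 and 4890 to 7723 CPM, with no such order.

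**Figure D5:**
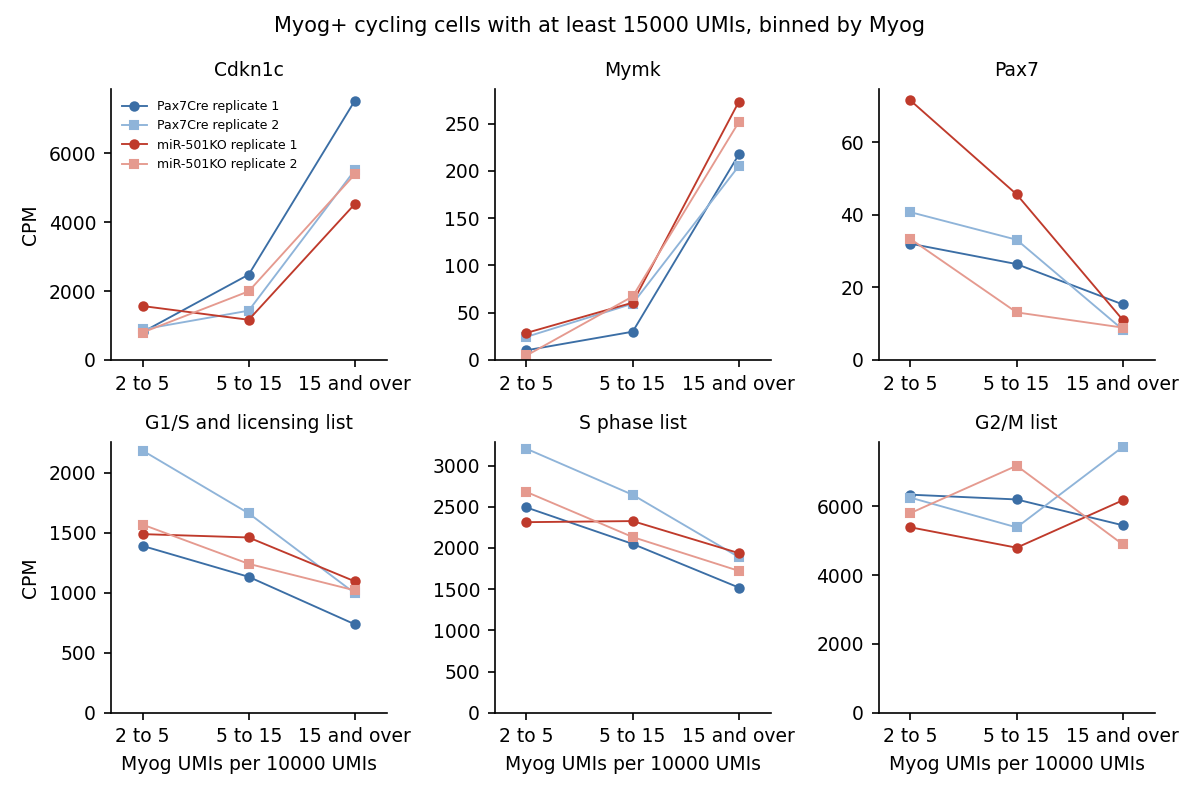
CPM of Cdkn1c, Mymk and Pax7 and of the summed G1/S, S phase and G2/M genes in Myog+ cycling cells with at least 15000 UMIs, by Myog per 10000 UMIs (2 to 5, 5 to 15, 15 and above), 1 line for each library. Cdkn1c and Mymk are highest and Pax7 and the G1/S and S phase sums lowest in the top group, while the G2/M sum has no common direction.

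For the 5 genes below, the share of cells with at least 1 UMI gave the same order of the sets when every deep cell was thinned to 5000 UMIs. As a background, 143 cells with Schwann cell markers (median 11187 UMIs) were thinned the same way. Myod1 UMIs were found in 65.9% of Myog+ cycling, 52.4% of Myog+ non-cycling, 22.6% of Myog-low cycling and 2.10% of Schwann-marker cells. For Pax7 the shares were 13.6%, 5.49%, 41.5% and 1.40%, and for Mymk 26.6%, 58.2%, 1.91% and 2.10%. The Mymk share of Myog-low cycling cells was thus at the background, and that of Myog+ cycling cells above it. Cdkn1c, found in 81.9%, 93.6% and 57.0%, had a background of 23.8%. Ccnb1 was found in 39.6%, 0.610% and 32.3%, with a background of 4.2%. Unthinned, the shares in Myog+ cycling cells were 94.6% for Myod1, 48.0% for Pax7, 61.6% for Mymk, 96.4% for Cdkn1c and 71.9% for Ccnb1. Myog, by which the cells were chosen, is given as a description. After thinning it was found in 94.0% of Myog+ cycling, 97.6% of Myog+ non-cycling, 8.99% of Myog-low cycling and 8.39% of Schwann-marker cells.

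Clcn5, the chloride transporter gene that hosts miR-501, stood at 108, 106, 109.9 and 91.3 CPM in Myog+ cycling cells, with -0.09 for miR-501KO against Pax7Cre (edgeR adjusted p = 0.993). Its level was lower than in Myog-low cycling cells (-0.53 ± 0.06) and had -0.07 against non-cycling cells. Of the estrogen-related receptors, Esrra stood at 16.9, 18.0, 19.6 and 18.0 CPM (0.00 and -0.59, with 0.12 between genotypes), and Esrrg, at no more than 0.276 CPM, was too low to be tested.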

How the data were processed

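Single-cell 3′ RNA libraries (10x Genomics) of sorted MPs, 2 for each genotype, were analysed. The deposited matrices held raw UMI counts per gene and barcode, made by the authors with Cell Ranger (6.0.2 per the file headers) on GRCm39 per the submitters' processing notes. The sort excluded doublets and dead cells, and no doublet caller was applied to choose cells. Barcodes were filtered and the 587 cells selected with scanpy 1.11.5 and scipy 1.17.1 in Python 3.11.15. Members and gene lists were chosen with earlier results of these data known.

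UMIs were summed per library and cell set and tested with edgeR 4.0.16 in R 4.3.3 (TMM scaling, quasi-likelihood test, low counts filtered with filterByExpr, Benjamini-Hochberg adjusted p of 0.05). Genotypes were compared over 2 against 2 libraries without a block, and cell sets with library as a block. The edgeR script was tested on simulated counts. Run numbers mark shared experiments and so pair the libraries. Across 5584 genes the run 1 minus run 2 differences of the genotypes had a correlation of 0.071, and -0.0415 over 5614 genes in cells with at least 15000 UMIs. Replicates of a genotype were separate libraries by their counts (chi-square of 5.64 and 6.52 for each degree of freedom). Shares were compared by exact permutation tests. Fold changes of the 12 rule genes, and of list genes where the selection fixes the direction, are descriptions.

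Of each list, the genes named were up to 4 with the largest change among those called and the 2 with the highest mean CPM in Myog+ cycling cells. The rule genes, the main cell cycle and myogenic regulators, Clcn5 and Esrrg were always named. Outside the lists, up to 10 called genes per direction with at least 20 CPM that moved alike in every library could be named. Alternatives were other limits, depth, Scrublet scores, scaling, DESeq2 1.42.0, no low-count filter, single libraries left out and the block. Antisense and overlapping genes were not examined.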

Additional observations from a re-analysis of the deposited data

Results flagged for a closer look

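The step from Myog+ non-cycling to Myog+ cycling cells differed between the genotypes for 13 genes by an interaction test in edgeR (11 with a positive and 2 with a negative term, adjusted p of 0.05; 687 genes at an unadjusted p under 0.05). Cxcl2, a chemokine, stood at 2.70, 3.05, 13.2 and 10.6 CPM in Myog+ cycling and at 20, 7.90, 3.56 and 5.24 CPM in Myog+ non-cycling cells (3.88 on the log2 scale, edgeR adjusted p = 5.38e-05). The cycling cells were lower in both Pax7Cre libraries and higher in both miR-501KO libraries. Apoe, an apolipoprotein made by macrophages and other cells, stood at 47.5, 49.4, 192 and 84.6 CPM in cycling and 133, 60.7, 82.4 and 51.3 CPM in non-cycling cells (2.05, adjusted p = 7.99e-05). The other positive terms were those of Rasd1 (2.65 and 2.11 CPM in the cycling cells of the miR-501KO libraries and at most 0.565 CPM in every other sum), Ednrb, Smpx, Rgs5, Lyz2, Chodl, Myh1, Myl4 and Tagln. Rgs5 and Lyz2 are markers of mural cells and macrophages, whose marker sums in the cycling cells of miR-501KO replicate 1 were 162 and 40.7 CPM, against 38.1 to 53 and 18.2 to 20.1 CPM in the other libraries. The mural sum included Notch3. The part of mural cells and macrophages in these terms was not tested.

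In the deep cells 3 genes were called: Cxcl2 (3.76), Thbs1 (-1.10) and Mgp (-1.10), each with an adjusted p of 0.0133. Thbs1, the matrix protein thrombospondin, stood at 49.8, 65.0, 56.8 and 61.9 CPM in Myog+ cycling and at 40.1, 47.5, 92.3 and 99.1 CPM in non-cycling cells (-1.01, edgeR adjusted p = 0.00223 in all cells). The cycling cells thus stood above the non-cycling ones in Pax7Cre and below them in miR-501KO, with the larger spread on the non-cycling side. Ankrd1, a stress-responsive muscle protein, stood at 67.0, 128, 89.5 and 128 against 48.9, 54.3, 110.4 and 153 CPM (-1.06, adjusted p = 0.0081). In the deep cells its term was -1.16, not past the threshold (adjusted p = 0.102).

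A signal appeared among barcodes that the selection left out. The limit of 0 UMIs of Cd74, an antigen-presenting cell gene, removed 319, 211, 1017 and 187 barcodes that passed the other filters. With them taken in, Myog+ cycling cells made up 27.0% of the barcodes of miR-501KO replicate 1, against 5.09% and 4.34% in the Pax7Cre libraries and 6.99% in miR-501KO replicate 2. The rise was thus in 1 library, and the genotype difference was 21.9 points in run 1 and 2.65 in run 2.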

How the results depend on the processing

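Depth limits the comparison of genotypes, since 246 of the 256 shallow cells came from miR-501KO, and with 2 against 2 libraries a permutation test cannot go below p = 0.33. The genotype difference in the share of Myog+ cycling cells was 4.17 points with every cell thinned to 5000 UMIs, 3.36 without single-library clusters, 12.3 without the Cd74 limit, -0.69 at 15000 UMIs (-0.39 and -1.0 without Pax7Cre replicates 1 and 2, -0.57 and -0.81 without miR-501KO replicates 1 and 2) and -1.0 when those cells were thinned. That in the share of Myog+ cells in cycle was 15.4 points with every cell thinned to 5000 UMIs, 17.5 without single-library clusters, 30.4 without the deepest cells, 1.44 at 15000 UMIs (2.46, 0.43, 1.85 and 1.03 in the same order) and 0.34 when thinned.

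Genotype calls numbered 7 with a Myog limit of 4, 6 with a sarcomere limit of 30, 6 without macrophage-marker cells, 9 without clusters made up mostly of 1 library, 6 with DESeq2 and 0 without the filter on low counts (edgeR, 751 genes at an unadjusted p under 0.05). They ranged from 0 (without Pax7Cre replicate 1, 536 genes unadjusted) to 102 when single libraries were left out, and were 15, 18, 32 and 47 at 15000 UMIs, in the library order above. With run as a replicate block they numbered 74, and 13 at 15000 UMIs. Against non-cycling cells, 2661 genes were called without the deepest cells and 3689 with DESeq2, and 59.8% of the 2661 were higher, against 48.9% of all calls reported. Against Myog-low cycling cells, 1751 were called without the deepest cells. Interaction calls numbered 3 at 15000 UMIs, 8 without single-library clusters, 2 with DESeq2 and 76 without the low-count filter.

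Ccnd1 against Myog-low cycling cells turned from 0.04 to -0.16 without miR-501KO replicate 1 (0.10 without Pax7Cre replicate 1), and Notch2 turned to -0.028 and -0.041 at 15000 UMIs without Pax7Cre replicates 1 and 2. At 15000 UMIs, some calls were lost without 1 library. Against Myog-low cycling cells these were Mcm5 and Trp53inp1 (without Pax7Cre replicate 1 or miR-501KO replicate 2), Incenp (either miR-501KO library) and Jam2 (Pax7Cre replicate 2). Against non-cycling cells they were Notch3 (Pax7Cre replicate 1), Nrarp (Pax7Cre replicate 2) and Rbm24 (Pax7Cre replicate 1 or miR-501KO replicate 2). Numb and Cdkn1b lost theirs against non-cycling cells without Pax7Cre replicate 1, Pax7Cre replicate 2 or miR-501KO replicate 2. Dropping the replicate block between cell sets gave 4606 and 3442 calls, and Ccnd1, Cdkn1b, Myod1, Notch1 and Cxcr4 against non-cycling and Cdk1, Cdkn1b, Ube2c, Asf1b, Incenp, Notch2 and Trp53inp1 against Myog-low cycling cells were no longer called. The block changed no other call named here beyond those given in the text. The cause was not tested.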

Other observations

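Genes of glycolysis and energy supply held 11 of 19 members higher and 2 lower in Myog+ cycling than in Myog-low cycling cells (median 0.22 against -0.01 over all genes). Over all genes 18.5% were higher and 19.3% lower. Gapdh, a central glycolytic enzyme, stood at 3125, 2884, 2882 and 2881 CPM against 2447, 2129, 2020.3 and 2240.0 CPM (0.49 ± 0.05, edgeR adjusted p = 3.33e-06), with no overlap. Hk2, which phosphorylates glucose, was the opposite at 23.1, 18.0, 24.2 and 20.1 against 39.0, 36.1, 56.0 and 39.2 CPM (-0.89 ± 0.09). Against the non-cycling cells 7 genes were higher and 6 lower, where 23.8% and 24.9% of all genes were. Pkm, pyruvate kinase, stood at 659, 623, 569 and 671 against 455, 379, 408 and 521 CPM (0.53 ± 0.06). Ckb, brain creatine kinase, stood at 392.4, 352, 309 and 384 against 728, 615, 600.2 and 649.9 CPM (-0.85).

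Imprinted growth genes were mostly lower in Myog+ cycling than in Myog-low cycling cells, 8 of 11 lower and 2 higher (median -0.42). Over all genes 19.3% were lower and 18.5% higher. Plagl1, a zinc finger factor that regulates other imprinted genes, stood at 62.4, 49.2, 47.4 and 51.4 against 188, 190.0, 194 and 165 CPM (-1.72 ± 0.07), and Peg3, chosen after its values had been seen, at 519, 552, 538 and 414 against 666, 733, 841 and 631 CPM (-0.43 ± 0.05). Cdkn1c, itself imprinted, was 1 of the 2 that were higher. Against the non-cycling cells 1 was higher and 2 lower, where 23.8% and 24.9% of all genes were. Plagl1 had -0.15 there (edgeR adjusted p = 0.201).

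Of 15 targets of p53, 4 were higher and 4 lower in each comparison, near the shares over all genes (18.5% and 19.3% against Myog-low cycling, 23.8% and 24.9% against non-cycling cells; list medians -0.12 against Myog-low cycling and -0.11 against non-cycling cells). In the deep cells 4 were higher and 6 lower against Myog-low cycling cells, and 3 higher and 3 lower against non-cycling cells. Phlda3, a repressor of Akt, stood at 109, 84.0, 105 and 108 CPM, below 163, 146, 164 and 162 CPM in Myog-low cycling cells (-0.57 ± 0.06) and above 55.5, 48.8, 62.9 and 72.7 CPM in non-cycling cells (0.77 ± 0.07). Trp53inp1, a p53-induced nuclear protein, had the reverse order, with 0.37 (lost without Pax7Cre replicate 1 or 2) and -1.23 ± 0.11. The call of Phlda3 against Myog-low cycling cells was lost without the deepest cells (-0.30, edgeR adjusted p = 0.252). No list was tested as a set.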
